A study of Homo sapiens with 9 samples.

Results

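This report follows the transcription factor gene NFE2L2, which encodes NRF2, its inhibitor gene KEAP1 and 7 of the genes that NRF2 activates across 3 states of NCI-H358, a human cell line long established from a lung tumour. The members were listed by name (NFE2L2, KEAP1, NQO1, GCLC, GCLM, TXNRD1, SRXN1, HMOX1 and OSGIN1), and all 9 were found among the 60230 genes measured and were among the 17307 genes tested. Poly(A) RNA from 9 libraries was sequenced, 3 from each state. Parental cells were sensitive to sotorasib, a targeted cancer drug that acts on the RAS pathway, and received no drug. NCI-H358-R, the resistant derivative, had been kept in 250 nM sotorasib for about 2 months, and was profiled either without the drug (off drug) or 4 days after dosing with 250 nM (on drug). It is a single derivative of the line, and no source used here says how long off-drug cells had been without sotorasib. Resistance and any other change that arose in the derivative cannot be told apart, nor can dosing and withdrawal. The labels call the libraries biological replicates without naming separate cultures, so the p-values here rest only on the scatter of 3 libraries per state, some of which may be technical.

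NRF2 is a short-lived transcription factor. KEAP1 holds it in the cytoplasm and hands it to a CUL3 ubiquitin ligase for destruction, and oxidants or electrophiles that modify KEAP1 let NRF2 build up, pair with small MAF proteins in the nucleus and bind antioxidant response elements. The genes it switches on make glutathione, keep thioredoxin reduced, supply NADPH, detoxify quinones and aldehydes, and break down haem. In lung cancer the pathway is often kept active by changes in KEAP1 or NFE2L2. NRF2 is controlled largely at the protein level, which RNA sequencing does not measure.

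The measured transcripts did not move as a block. NQO1, SRXN1 and OSGIN1 were lower in the resistant line than in parental cells, off drug and on drug. GCLC and HMOX1 were higher and TXNRD1 was lower on drug than in both other states. GCLM fell on drug from its off-drug level and was not called on drug against parental cells. KEAP1 was higher on drug than in either other state, and NFE2L2 was not called in any of the 3 comparisons.

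The antioxidant response element has the core TGACNNNGC, which was searched on both strands in RefSeq promoter windows on GRCh38.p14 that run from 250 bases before to 50 bases after each annotated start. Windows were available for 8 of the 9 members, 11 windows in all, and not for HMOX1. Of those 11 windows, 4 held a core, in 3 genes: KEAP1, GCLM and TXNRD1. Of all 35116 windows of the same length, 13.3% held one. The stretches of 100 bases before the start are shown for these genes because they place the element next to genes that moved in different directions, with cores in capitals, written 5′ to 3′ along the strand of the gene (a core on the other strand appears as its reverse complement). They lie at chr1:93909431-93909530 (GCLM, minus strand), chr12:104215679-104215778 (TXNRD1, plus strand, upstream start) and chr19:10502772-10502871 (KEAP1, minus strand, downstream start).
GCLM: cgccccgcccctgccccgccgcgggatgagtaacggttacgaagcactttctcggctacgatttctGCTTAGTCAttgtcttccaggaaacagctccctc
TXNRD1: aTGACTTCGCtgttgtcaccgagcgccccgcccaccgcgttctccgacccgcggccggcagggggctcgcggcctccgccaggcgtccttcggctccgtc
KEAP1: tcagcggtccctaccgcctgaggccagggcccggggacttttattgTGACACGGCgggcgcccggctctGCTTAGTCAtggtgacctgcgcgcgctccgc
GCLM and KEAP1 carry the same core sequence, TGACTAAGC, on the strand opposite to the gene. TXNRD1 has 2 further cores, one that spans the upstream start (chr12:104215761-104215789, plus strand) and one before its downstream start (chr12:104286920-104286948, plus strand), each shown with 10 bases on either side.
TXNRD1 at the upstream start: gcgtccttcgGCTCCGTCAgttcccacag
TXNRD1 before the downstream start: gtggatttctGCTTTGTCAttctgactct
A core in a window is a sequence match and not a measured binding site, and the windows do not reach distal elements.

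Levels below are in counts per 1e6 (CPM, scaled with TMM factors that correct for library makeup), given per library in the order of replicates 1 to 3, with means ± SD over 3 libraries per state. Differences are given as log2 fold change ± SE from edgeR's quasi-likelihood test, with p-values adjusted over all genes tested by the Benjamini-Hochberg method, and a gene was called at an adjusted p under 0.05. Levels of different genes are compared in TPM, which is scaled for transcript length. The exception is genes that overlap a member, given as a percentage of its CPM without length scaling. Total counts per library, in units of 1e6, ran from 25.7 to 34.73. Before TMM scaling, 3 counts therefore correspond to 0.0864 to 0.117 counts per 1e6, a floor for counting error only. On-drug libraries stood apart, with TMM factors of 1.11 to 1.12 against 0.917 to 0.972 in the others and counts for 24191 to 24360 genes against 22081 to 22957. Mitochondrial transcripts took 2.93 to 3.45% of counts off drug, less than the 3.88 to 5.29% of parental and the 4.01 to 5.04% of on-drug libraries. All 6 epithelial markers were measured (summed level 3766 to 4553 TPM in parental, 3661 to 4181 off drug and 2276 to 3047 on drug), and of the 4 alveolar markers NKX2-1 gave most of the sum (21.0 to 24.4 TPM in parental, 11.4 to 13.2 off drug, 56.4 to 71.3 on drug), with SFTPB at 0 in every library. The 5 fibroblast markers summed to 76.5 to 97.6 TPM on drug, to 7.99 to 10.3 in parental cells and to 5.55 to 7.17 off drug, nearly all of it from LUM and COL1A1, with DCN and COL1A2 at no more than 0.385 TPM. The 5 leukocyte markers summed to at most 5.12 TPM, the 4 endothelial markers to at most 4.75 TPM and the 4 erythroid markers to at most 0.257 TPM. The part of these differences in makeup in the results below was not tested. In bulk RNA a change in a few cells and a smaller change in all cells cannot be told apart.

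NFE2L2 (ENSG00000116044.16, chromosome 2, 177227595 to 177392697, minus strand) stood at 87.1, 87.8 and 84.9 CPM in parental libraries, 81.8, 74.6 and 75.3 off drug and 84.8, 79.9 and 82.9 on drug. The highest mean was 1.12 times the lowest, with all off-drug libraries below the parental ones and on-drug libraries overlapping the off-drug ones. The differences were −0.17 ± 0.07 between off-drug and parental cells (adjusted p = 0.069), 0.10 ± 0.07 between on-drug and off-drug cells (adjusted p = 0.27) and −0.07 ± 0.07 between on-drug and parental cells (adjusted p = 0.42). The 95% intervals of these differences ran from −0.31 to −0.02, from −0.05 to 0.24 and from −0.21 to 0.07. Off drug against parental cells it was called lower with upper-quartile factors (−0.26, adjusted p = 0.007), library size only (−0.20, adjusted p = 0.037), a stricter filter (−0.20, adjusted p = 0.03), only the groups compared (−0.18, adjusted p = 0.047), DESeq2 (−0.17, adjusted p = 0.036) and without on-drug replicate 2 (−0.18, adjusted p = 0.038). In on-drug against off-drug cells it was called higher with upper-quartile factors (0.23, adjusted p = 0.011), library size only (0.35, adjusted p = 0.00078) and log2(TPM + 1) values (0.28, adjusted p = 0.02), scales on which the median of all genes was 0.15, 0.27 and 0.16. Against parental cells its on-drug difference changed sign with library size only (0.15) and on log2(TPM + 1) values (0.19). The median of all genes for that comparison was 0.24 and 0.27 on these scales. Exons of NFE2L2 overlap those of AC019080.1 on the same strand, whose mean CPM was 2.24 to 3.71% of that of NFE2L2. They also overlap 54 bases of AGPS on the other strand, which stood at 77.0% of the NFE2L2 CPM in parental cells.

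KEAP1 (ENSG00000079999.14, chromosome 19, 10486120 to 10503741, minus strand), the adaptor that targets NRF2 for destruction, was measured at 31.3, 31.0 and 35.7 CPM in parental libraries. It was at 39.6, 37.7 and 41.8 CPM off drug and at 56.5, 48.1 and 53.7 CPM on drug, with no overlap between states. It rose on drug against off drug (0.41 ± 0.09, adjusted p = 0.00082) and against parental cells (0.69 ± 0.09, adjusted p = 4.7e-06). Off drug it was higher than in parental cells by 0.28 ± 0.09 (adjusted p = 0.015). That smaller call was lost with upper-quartile factors (0.19, adjusted p = 0.079) and when parental replicate 1 (0.25, adjusted p = 0.06), parental replicate 2 (0.25, adjusted p = 0.064) or off-drug replicate 3 (0.24, adjusted p = 0.066) was left out.

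KEAP1 transcripts were fewer than NFE2L2 transcripts in every library when length was taken into account. The ratio of KEAP1 to NFE2L2 in TPM was 0.248, 0.241 and 0.314 in parental libraries, 0.346, 0.381 and 0.404 off drug and 0.554, 0.468 and 0.495 on drug. The mean ratio was thus 1.89 times as high on drug as in parental cells, with no overlap between any pair of states. A two-sided exact permutation test gave p = 0.1 for each of the 3 differences, the smallest value that 3 libraries against 3 allow. The log2 ratio of the on-drug to the parental mean of KEAP1 was 0.69 in CPM and 1.13 in TPM. For NFE2L2 these values were −0.07 and 0.19. The median difference of all genes between on-drug and parental cells was 0.016 in the CPM fit and 0.27 on log2(TPM + 1) values.

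**Figure D1:**
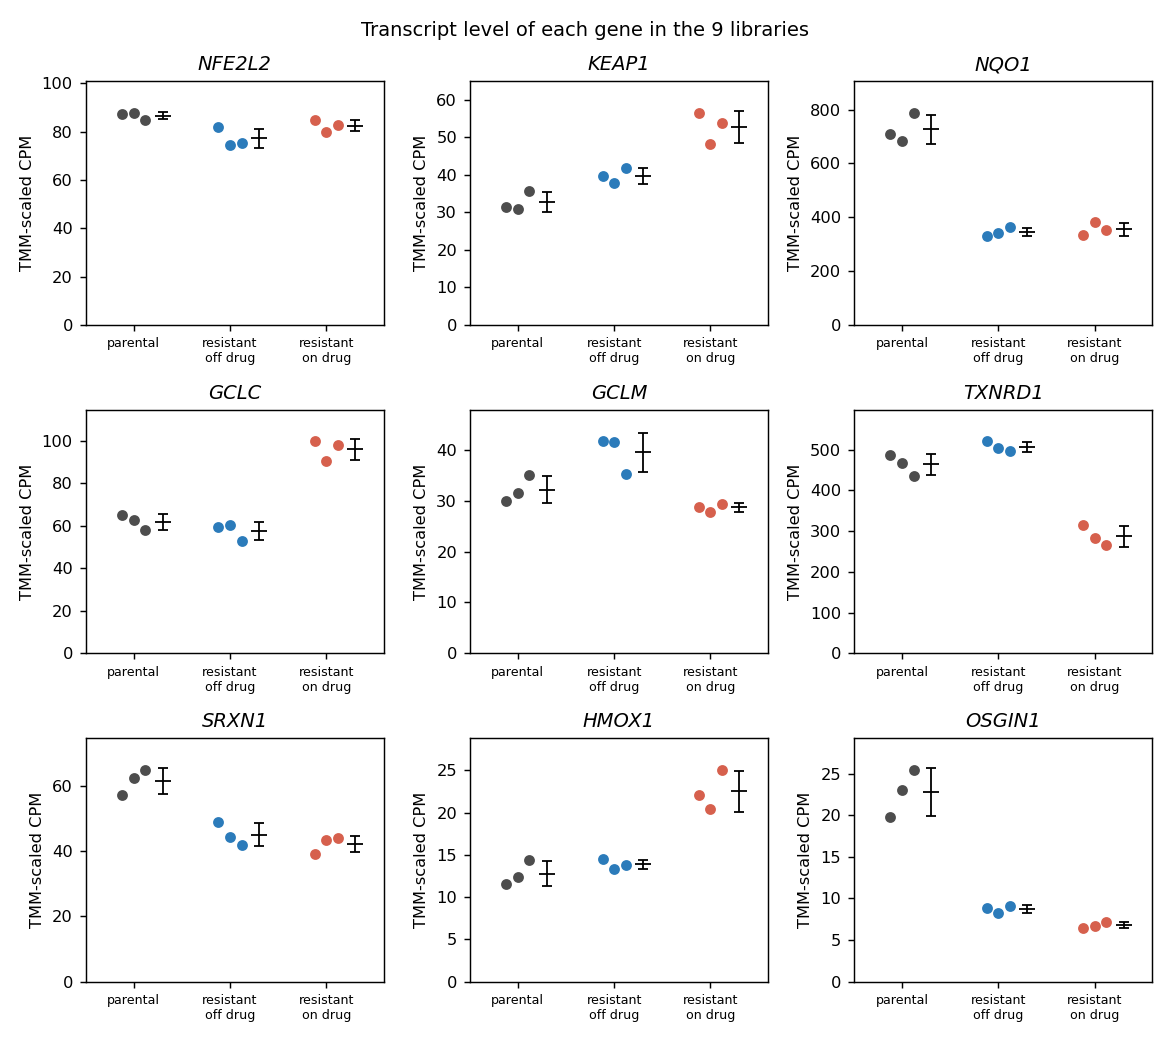
Level of each of the 9 genes in TMM-scaled CPM (vertical axis, from 0, a separate scale per gene) in parental, resistant off-drug and resistant on-drug cells. Points are libraries and black bars the mean ± SD of 3; NQO1 and OSGIN1 are lower in all 6 resistant libraries than in the 3 parental ones, whereas GCLC and HMOX1 are highest in the 3 on-drug libraries.

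Among the targets, NQO1 gave the most transcripts in all 9 libraries. NQO1 (ENSG00000181019.13, chromosome 16, 69706996 to 69726951, minus strand) encodes a quinone reductase that is widely used as a readout of NRF2 activity. Its level was 709.9, 682 and 788 CPM in parental libraries, 329.9, 343 and 362 off drug and 334, 382 and 352 on drug. Every resistant library held less than the lowest parental library, and the off-drug and on-drug libraries overlapped. NQO1 was lower off drug than in parental cells by −1.08 ± 0.08 (adjusted p = 3.1e-08) and on drug by −1.03 ± 0.08 (adjusted p = 2.2e-08), at 47.5 and 49.0% of the parental mean. Between on-drug and off-drug cells the difference was 0.05 ± 0.08 (adjusted p = 0.65), with a 95% interval from −0.12 to 0.21. It was called higher with library size only (0.30, adjusted p = 0.0026), where the median of all genes was 0.27, and was −0.0024 without on-drug replicate 2. In TPM, NQO1 made up 69.2 to 75.7% of the summed transcripts of the 7 targets in parental libraries, then 51.6 to 55.9% of it off drug and 60.0 to 66.8% in cells on drug. That sum was 593 to 623 TPM on drug and 629 to 677 off drug, below the 934 to 945 TPM of parental cells.

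OSGIN1 (ENSG00000140961.14, chromosome 16, 83948282 to 83966332, plus strand), an oxidative stress-induced growth inhibitor, was the member with the largest change. Its level was 19.8, 23.0 and 25.5 CPM in parental libraries, 8.81, 8.27 and 9.12 off drug and 6.49, 6.73 and 7.19 on drug. The 3 states did not overlap, and the parental mean was 3.34 times the on-drug mean. It was lower by −1.38 ± 0.11 off drug against parental cells (adjusted p = 4.1e-08) and by −1.74 ± 0.11 on drug against parental cells (adjusted p = 1.1e-09). Both falls were called under every alternative run. The further difference between on-drug and off-drug cells, −0.36 ± 0.11 (adjusted p = 0.012), was not called with upper-quartile factors (−0.23, adjusted p = 0.095), library size only (−0.10, adjusted p = 0.42) or on log2(TPM + 1) values (−0.08, adjusted p = 0.68). A GENCODE gene on the same strand, AC009119.2, shares 481 exonic bases with OSGIN1. It was not among the 60230 genes measured, so its level beside OSGIN1 cannot be given.

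SRXN1 (ENSG00000271303.2, chromosome 20, 646615 to 653370, minus strand), which encodes sulfiredoxin, the enzyme that repairs overoxidised peroxiredoxins, showed a smaller fall of the same kind. Its level was 57.2, 62.4 and 65.0 CPM in parental libraries, 48.9, 44.5 and 41.8 off drug and 39.2, 43.4 and 43.9 on drug. Parental libraries were above all resistant ones, while the off-drug and on-drug libraries overlapped. The differences were −0.45 ± 0.09 off drug against parental cells (adjusted p = 0.00041) and −0.54 ± 0.09 on drug against parental cells (adjusted p = 4.4e-05). On drug against off drug the difference was −0.09 ± 0.09 (adjusted p = 0.36), and it was above 0 with upper-quartile factors (0.04), library size only (0.16) and log2(TPM + 1) values (0.15). On those scales the median of all genes was 0.15, 0.27 and 0.16. On log2(TPM + 1) values the difference of SRXN1 between on-drug and parental cells was −0.16 and not called (adjusted p = 0.17). The median of all genes for that comparison and scale was 0.27. SRXN1 shares 2292 exonic bases with AL121758.1 on the same strand, to which the authors' counts assign at most 0.150% of the mean CPM of SRXN1.

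Glutathione synthesis starts with glutamate-cysteine ligase, which has a catalytic subunit (GCLC) and a modifier subunit (GCLM), and the transcripts of its subunits parted on drug. GCLC (ENSG00000001084.13, chromosome 6, 53497341 to 53616970, minus strand) was at 65.2, 62.7 and 57.9 CPM in parental libraries, 59.5, 60.1 and 52.8 off drug and 99.8, 90.3 and 97.8 on drug. All on-drug libraries lay above all others, and parental and off-drug libraries overlapped. GCLC rose on drug by 0.74 ± 0.08 against off-drug cells (adjusted p = 1.2e-06) and by 0.63 ± 0.08 against parental cells (adjusted p = 5.7e-06). Off drug against parental cells it differed by −0.11 ± 0.08 (adjusted p = 0.29).

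GCLM (ENSG00000023909.10, chromosome 1, 93885205 to 93909456, minus strand) was at 29.9, 31.5 and 35.1 CPM in parental libraries, 41.7, 41.6 and 35.2 off drug and 28.9, 27.8 and 29.4 on drug. Off-drug libraries were the highest, although off-drug replicate 3 was close to parental replicate 3. GCLM fell on drug against off drug (−0.46 ± 0.09, adjusted p = 0.0004), a call lost only with library size only (−0.21, adjusted p = 0.066). Off drug it was higher than in parental cells by 0.30 ± 0.09 (adjusted p = 0.012), and that call was lost with upper-quartile factors (0.21, adjusted p = 0.069) and when parental replicate 1 (0.25, adjusted p = 0.064), off-drug replicate 1 (0.26, adjusted p = 0.062) or off-drug replicate 2 (0.25, adjusted p = 0.071) was left out. On drug against parental cells the difference was −0.16 ± 0.09 (adjusted p = 0.13), and 0.06 with library size only, where the median of all genes was 0.24.

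The ratio of GCLC to GCLM in TPM was 2.45, 2.14 and 1.68 in parental libraries, 1.66, 1.60 and 1.64 off drug and 4.18, 3.97 and 4.01 on drug. Its mean was 2.48 times as high on drug as off drug and 1.94 times as high as in parental cells. On-drug ratios did not overlap with either other state, and the lowest parental ratio lay just above the highest off-drug ratio. A two-sided exact permutation test gave p = 0.1 for each difference, the smallest value possible here, and p = 0.1 after adjustment over the 6 ratio tests.

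**Figure D2:**
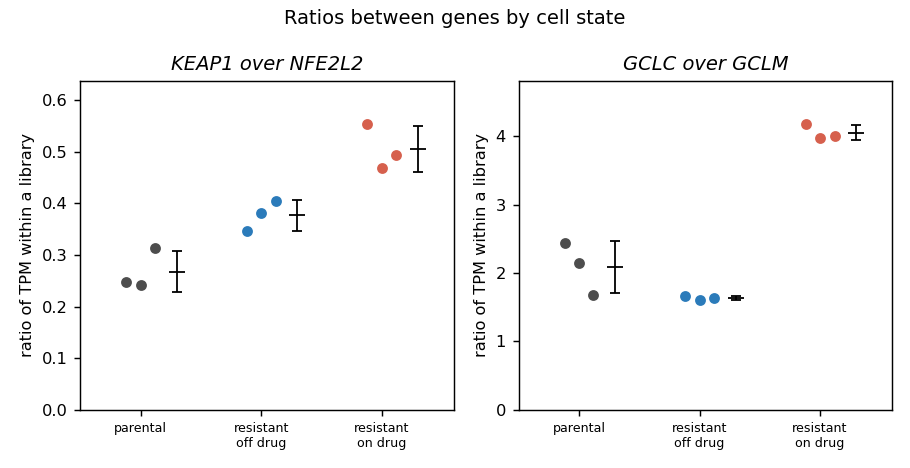
Ratio of KEAP1 to NFE2L2 (left) and of GCLC to GCLM (right) within each library, in TPM over TPM (vertical axis, from 0), for the 3 cell states. Points are libraries and black bars the mean ± SD of 3; the on-drug ratios are the highest in both panels, 0.468 to 0.554 and 3.97 to 4.18.

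TXNRD1 (ENSG00000198431.16, chromosome 12, 104215779 to 104350305, plus strand) encodes cytosolic thioredoxin reductase, which spends NADPH to keep thioredoxin reduced. Its level was 487, 468 and 435 CPM in parental libraries, 520.1, 504 and 496 off drug and 316, 282 and 265 on drug. On-drug libraries were the lowest, and off-drug libraries lay just above the parental ones. TXNRD1 fell on drug by −0.82 ± 0.08 against off-drug cells (adjusted p = 3.5e-07) and by −0.69 ± 0.08 against parental cells (adjusted p = 2.1e-06). Off drug against parental cells it differed by 0.13 ± 0.08 (adjusted p = 0.2). The deposited count divided by the deposited TPM, which tracks the mean length of the transcripts to which reads were assigned, also moved. Relative to the median gene of each library it was 1.08, 1.11 and 1.297 for TXNRD1 in parental libraries, 1.09, 1.10 and 1.12 off drug and 1.37, 1.37 and 1.43 on drug. The log2 ratio of the on-drug to the off-drug mean was −0.94 in TPM and −0.82 in CPM.

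HMOX1 (ENSG00000100292.18, chromosome 22, 35380361 to 35394214, plus strand) encodes haem oxygenase 1, which cleaves haem and is held in check by the repressor BACH1. Its level was 11.5, 12.3 and 14.4 CPM in parental libraries, 14.5, 13.3 and 13.8 off drug and 22.1, 20.4 and 25.1 on drug. On-drug libraries lay above all others, and parental and off-drug libraries overlapped. HMOX1 rose on drug by 0.70 ± 0.11 against off-drug cells (adjusted p = 3.2e-05) and by 0.82 ± 0.11 against parental cells (adjusted p = 5.3e-06), and differed off drug from parental cells by 0.12 ± 0.11 (adjusted p = 0.38). BACH1 was at 27.1 ± 4.21 CPM in parental cells, 36.3 ± 1.74 off drug and 17.8 ± 1.86 on drug, and fell on drug against off drug (−1.03 ± 0.11, adjusted p = 9e-07). Against parental cells BACH1 was higher off drug (0.42 ± 0.11, adjusted p = 0.0044) and lower on drug (−0.60 ± 0.11, adjusted p = 0.00021), calls that were lost on log2(TPM + 1) values (0.44, adjusted p = 0.06, and −0.32, adjusted p = 0.14). Off drug BACH1 was thus higher while HMOX1 was not called. Any link between BACH1 and HMOX1 levels was not tested.

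**Figure D3:**
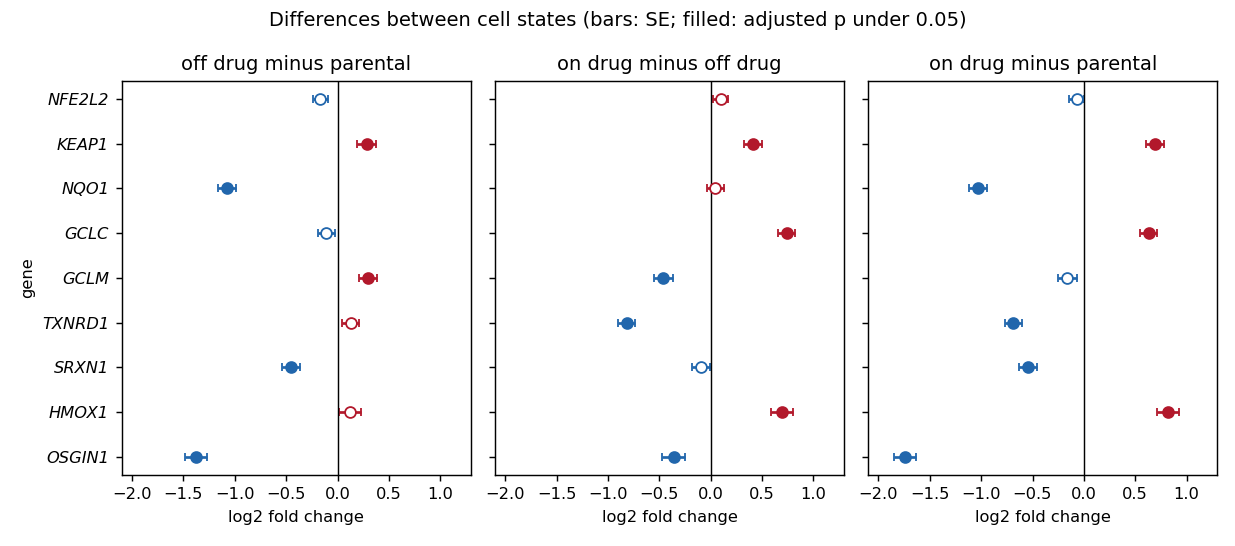
Difference of each of the 9 genes in log2 fold change (horizontal axis) between off-drug and parental, on-drug and off-drug, and on-drug and parental cells. Bars are SE, red points lie above 0, blue points below 0 and filled points were called; GCLC (0.74) and HMOX1 (0.70) lie on the right and TXNRD1 (−0.82) and GCLM (−0.46) on the left in the middle panel.

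Counted over the 9 members, 2 were called higher and 3 lower off drug against parental cells, where 28.4% of all genes tested were called higher and 26.6% lower (55.0% in either direction). On drug against off drug 3 were higher and 3 lower, against 31.4 and 31.2% of all genes (62.6% in either direction). On drug against parental cells 3 were higher and 4 lower, against 33.4 and 32.9% (66.3% in either direction). With so many genes called, the members' counts lie close to those backgrounds. The median difference of the members was −0.11, 0.05 and −0.16 in the 3 comparisons, beside 0.00070, 0.016 and 0.016 over all genes. The comparisons share libraries, so they are not independent of each other.

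The 46 other pathway genes were measured in every case. Off drug against parental cells 25 were lower and 8 higher (71.7% called, beside 55.0% of all genes tested), with a median of −0.49. From off drug to on drug 18 were lower and 10 higher (60.9% called, beside 62.6% of all genes), with a median of −0.13. On drug against parental cells 25 were lower and 6 higher (67.4% called, beside 66.3% of all genes), with a median of −0.34. With library size only, the count of those higher on drug against off drug was 17, and that against parental cells was 14. Among all called genes, 68.5 and 64.3% were higher on that scale in these comparisons, beside 50.1 and 50.4% in the main fit.

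**Figure D4:**
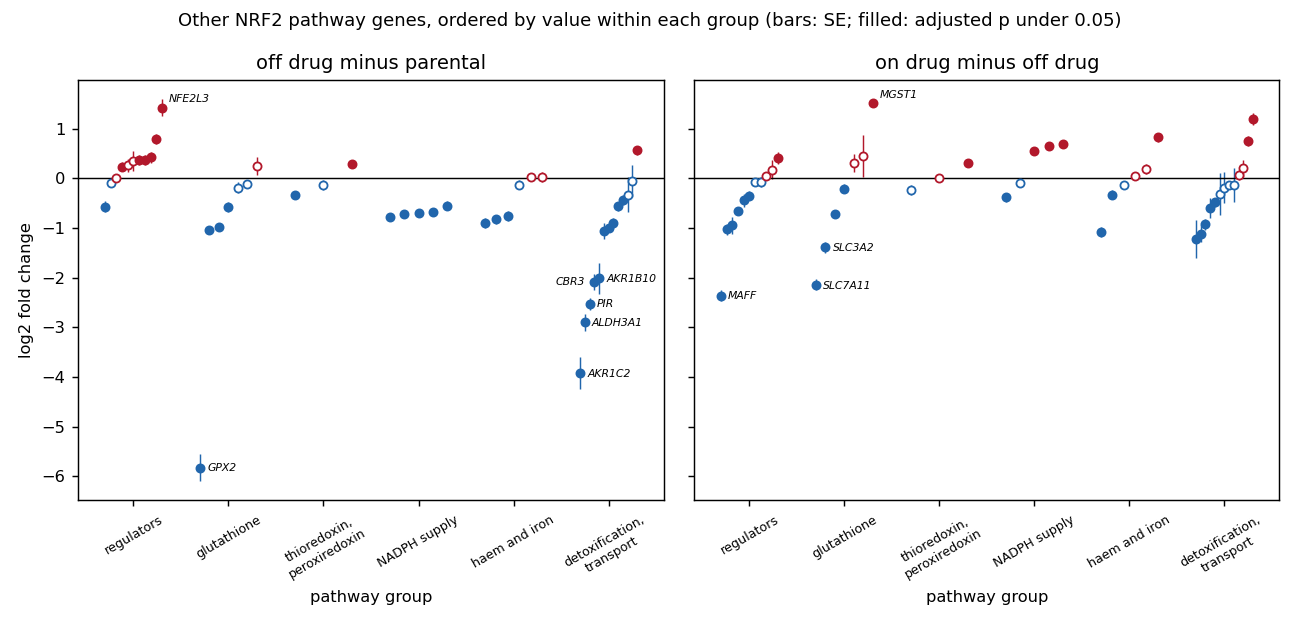
Log2 fold change (vertical axis) of the other pathway genes by group (horizontal axis), off drug minus parental on the left and on drug minus off drug on the right, with 1 NADPH supply gene not shown. Bars are SE and filled points were called; the NADPH supply genes shown are all below 0 on the left, and TALDO1 (0.66) and PGD (0.55) are among those above 0 on the right.

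Of the 11 regulators, 6 were higher and 1 lower off drug against parental cells, and 1 was higher and 6 lower on drug against off drug. The share called was 63.6% in each, beside 55.0 and 62.6% of all genes tested. In on-drug against parental cells 3 regulators were higher and 3 lower (54.55% called, beside 66.3% of all genes). MAFF, a small MAF partner of NRF2, was at 22.6, 23.5 and 25.8 CPM in parental libraries, 45.1, 40.5 and 38.8 off drug and 8.34, 6.92 and 8.90 on drug. It was thus highest off drug and lowest on drug with no overlap, and fell on drug by −2.36 ± 0.11 (adjusted p = 2.7e-11). NFE2L3, a relative of NFE2L2, was 1.43 ± 0.17 higher off drug than in parental cells (adjusted p = 4.5e-06), at 11.4 ± 2.3 against 4.23 ± 0.559 CPM. On drug it was at 5.9 ± 1.07 CPM, lower than off drug (−0.95 ± 0.17, adjusted p = 0.00012), a call lost on log2(TPM + 1) values (−0.40, adjusted p = 0.1). Its difference from parental cells on drug was 0.48 ± 0.18 (adjusted p = 0.025), a call lost when parental replicate 1 (0.47, adjusted p = 0.06), parental replicate 2 (0.39, adjusted p = 0.095), on-drug replicate 1 (0.33, adjusted p = 0.14) or on-drug replicate 3 (0.48, adjusted p = 0.052) was left out. CUL3, the ligase scaffold that works with KEAP1, was also higher off drug (0.37 ± 0.09, adjusted p = 0.0029), at 98.9 ± 7.76 against 76.4 ± 6.4 CPM, and on drug (0.30 ± 0.09, adjusted p = 0.0093, but 0.21 with adjusted p = 0.069 without on-drug replicate 1). Between on-drug and off-drug cells CUL3 differed by −0.07 ± 0.09 (adjusted p = 0.51), a value above 0 with upper-quartile factors (0.06), library size only (0.18) and log2(TPM + 1) values (0.24). MAFG and SQSTM1, which encodes a protein that can sequester KEAP1, were not called in any comparison, at 47.0 to 52.9 and 182 to 189.7 CPM in the means of the 3 states. MAFG was called lower on drug than in parental cells without parental replicate 1 (−0.24, adjusted p = 0.036) and without on-drug replicate 3 (−0.24, adjusted p = 0.043). SQSTM1 was called higher on drug than off drug with library size only (0.30, adjusted p = 0.002) and on log2(TPM + 1) values (0.30, adjusted p = 0.01), where the median of all genes was 0.27 and 0.16. It was called higher on drug than in parental cells on the same settings (0.28, adjusted p = 0.0031, and 0.43, adjusted p = 0.0008), where that median was 0.24 and 0.27.

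The NADPH supply group was lower off drug in all its members, with 6 of 6 genes called below parental cells and a median of −0.71. On drug against off drug 4 of the 6 were higher and 1 lower. Against parental cells 3 were lower on drug and 0 higher. The shares called were 100, 83.3 and 50% in these comparisons, beside 55.0, 62.6 and 66.3% of all genes tested. Of the 4 genes named next, which were chosen after their values were seen, TALDO1 (transaldolase, of the pentose phosphate pathway) was at 132, 134 and 153 CPM in parental libraries, 85.6, 82.1 and 90.7 off drug and 139, 135 and 135 on drug. Off-drug libraries were the lowest, and parental and on-drug libraries overlapped. TALDO1 was lower off drug than in parental cells by −0.70 ± 0.08 (adjusted p = 2.4e-06) and higher on drug than off drug by 0.66 ± 0.08 (adjusted p = 2.8e-06). PGD (phosphogluconate dehydrogenase, which makes NADPH) was lower off drug by −0.67 ± 0.08 (adjusted p = 4.6e-06) and higher on drug than off drug by 0.55 ± 0.08 (adjusted p = 2.3e-05). TKT (transketolase) went the other way on drug, at 1051 ± 70.9 CPM in parental cells, 719 ± 2.78 off drug and 553 ± 64.1 on drug, and was the 1 gene called lower on drug than off drug (−0.38 ± 0.09, adjusted p = 0.0017). ME1 (malic enzyme) was at 137 ± 2.35, 83.5 ± 2.58 and 78.0 ± 4.87 CPM in the same order, lower off drug (−0.72 ± 0.08, adjusted p = 9e-07) and not called between on-drug and off-drug cells (−0.10 ± 0.08, adjusted p = 0.27).

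Of the 7 genes of glutathione supply and use, 4 were lower and 0 higher off drug against parental cells, and 4 were lower and 1 higher on drug against off drug. The shares called were 57.1 and 71.4%, beside 55.0 and 62.6% of all genes tested. In on-drug against parental cells 5 were lower and 2 higher (100% called, beside 66.3% of all genes). SLC7A11, the cystine carrier that feeds glutathione synthesis, was at 79.6, 78.7 and 62.1 CPM in parental libraries, 57.1, 71.0 and 65.9 off drug and 15.0, 15.3 and 13.6 on drug. Parental and off-drug libraries overlapped (−0.18 ± 0.11, adjusted p = 0.15, but −0.29 with adjusted p = 0.016 without parental replicate 3 and −0.27 with adjusted p = 0.038 with upper-quartile factors), and all on-drug libraries were lower (−2.15 ± 0.11 against off drug, adjusted p = 1.6e-10, and −2.33 ± 0.11 against parental cells, adjusted p = 5e-11). Its partner chain SLC3A2 fell on drug as well (−1.39 ± 0.11, adjusted p = 1.4e-08), from 503 ± 18.1 to 192 ± 21.4 CPM, and was −1.97 ± 0.11 below parental cells (adjusted p = 2.2e-10). In the same libraries GCLC rose. MGST1, a membrane glutathione transferase, was at 127 ± 11 CPM in parental cells, 61.9 ± 2.92 off drug and 178 ± 5.65 on drug. It was lower off drug than in parental cells (−1.04 ± 0.08, adjusted p = 3.9e-08), rose on drug from that level by 1.52 ± 0.08 (adjusted p = 2.3e-10) and stood 0.48 ± 0.08 above parental cells on drug (adjusted p = 6.6e-05). GPX2, a glutathione peroxidase, was at 12.2, 13.8 and 15.0 CPM in parental libraries and at 0.198, 0.450 and 0.0963 off drug, the lowest of them at the floor of 3 counts. Its difference of −5.83 ± 0.27 (adjusted p = 1.5e-10) became −6.56 without off-drug replicate 2. On drug it was at 0.340, 0.296 and 0.336 CPM, −5.38 ± 0.25 below parental cells (adjusted p = 2.4e-11). Between on-drug and off-drug cells it differed by 0.45 ± 0.42 (adjusted p = 0.37), and by 1.17 without off-drug replicate 2 (adjusted p = 0.039).

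Of the 3 thioredoxin and peroxiredoxin genes, 1 was lower and 1 higher off drug against parental cells (66.7% called, beside 55.0% of all genes). From off drug to on drug 0 were lower and 1 higher (33.3% called, beside 62.6%). In on-drug against parental cells 1 was lower and 1 higher (66.7% called, beside 66.3%). TXN, thioredoxin itself, was at 251 ± 11.9 CPM in parental cells, 229 ± 18.4 off drug and 195 ± 30.1 on drug, where replicate 2 (229 CPM) stood above replicates 1 and 3 (172 and 183 CPM). It was lower on drug than in parental cells (−0.36 ± 0.10, adjusted p = 0.0047), a call lost with library size only (−0.14) and on log2(TPM + 1) values (−0.05). Its difference from off drug to on drug was −0.23 ± 0.10 (adjusted p = 0.056), which was called with DESeq2 (−0.23, adjusted p = 0.047), voom (−0.24, adjusted p = 0.044), without parental replicate 3 (−0.23, adjusted p = 0.044) and without on-drug replicate 2 (−0.36, adjusted p = 0.002), whereas it was 0.02 with library size only. Its enzyme TXNRD1 fell on drug in the values above.

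Of the 13 detoxification and transport genes, 10 were lower and 1 higher off drug against parental cells, with a median of −0.99. The share called was 84.6%, beside 55.0% of all genes tested. From off drug to on drug 5 were lower and 2 higher (53.85% called, beside 62.6% of all genes). In on-drug against parental cells 10 were lower and 0 higher (76.9% called, beside 66.3%). ALDH3A1, an aldehyde dehydrogenase, was at 15.0, 15.1 and 19.2 CPM in parental libraries and at 2.54, 2.25 and 1.86 off drug (−2.90 ± 0.17, adjusted p = 1.5e-09), and on drug it was −3.50 ± 0.17 below parental cells (adjusted p = 6.4e-11). PIR, which encodes the iron-binding nuclear protein pirin, was at 31.1, 24.6 and 32.0 CPM in parental libraries, 5.12, 4.99 and 5.14 off drug and 11.3, 13.1 and 10.7 on drug. It was lower off drug (−2.52 ± 0.12, adjusted p = 2.4e-10) and higher on drug than off drug (1.20 ± 0.13, adjusted p = 5.6e-07). CBR3, a carbonyl reductase, was lower off drug by −2.08 ± 0.17 (adjusted p = 4.3e-08). AKR1C3, an aldo-keto reductase, was lower on drug than off drug by −1.11 ± 0.17 (adjusted p = 4.2e-05) and lower than in parental cells by −2.17 ± 0.17 (adjusted p = 1.3e-08). Some of its reads may be shared with related genes of its family, and its values are uncertain to that extent.

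Of the 6 haem and iron genes, 3 were lower and 0 higher off drug against parental cells (50% called, beside 55.0% of all genes). From off drug to on drug 2 were lower and 1 higher (50% called, beside 62.6%). In on-drug against parental cells 3 were lower and 0 higher (50% called, beside 66.3%). BLVRB, a biliverdin reductase that acts downstream of haem oxygenase, was at 134 ± 15.2 CPM in parental cells, 71.9 ± 6.79 off drug and 34.2 ± 2.55 on drug. It was −1.97 ± 0.10 lower on drug than in parental cells (adjusted p = 1e-10), while HMOX1 was higher there.

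Among the other pathway genes 32 of 46 had a promoter window, 47 windows in all, and 12 of these windows, in 12 genes, held the core. The 13.3% given above is a share of windows and not of genes. From the 12 genes, 5 were picked with their values known. Cores of PGD and ME1, also named above, are not printed. The sites of 5 genes named above are shown with 10 bases on either side because they span falls and rises: MAFF (chr22:38201862-38201890, plus strand), SLC3A2 (chr11:62881652-62881680, plus strand), GPX2 (chr14:64942849-64942877, minus strand), MGST1 (chr12:16347135-16347163, plus strand) and PIR (chrX:15493289-15493317, minus strand).
MAFF: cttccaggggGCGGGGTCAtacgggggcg
SLC3A2: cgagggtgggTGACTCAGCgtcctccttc
GPX2: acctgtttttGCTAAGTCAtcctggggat
MGST1: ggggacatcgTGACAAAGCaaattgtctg
PIR: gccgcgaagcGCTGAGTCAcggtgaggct
Of the 19 cores found in members and other pathway genes, 3 contain another motif, the AP-1 element TGACTCA, in SLC3A2, PIR and ME1.

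Genes whose pattern over the 9 libraries was most like that of NQO1 were DHRS7 (Pearson r = 0.994 of log2 CPM), LDAF1 (0.993), OAT (0.992), GCA (0.992) and ARL6IP5 (0.991), and 253 of 9944 genes searched had an r of at least 0.95. Their mean levels were lower in both resistant states, DHRS7 for instance at 199 CPM in parental cells, 91.0 off drug and 88.1 on drug. Those closest to NFE2L2 were WDR33 (0.940), PNMA1 (0.933), SEMA4F (0.930), SHFL (0.928) and PLCB3 (0.921). These are descriptions over 9 libraries in 3 states that share depth and makeup within a state.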

How the data were processed

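Poly(A) RNA was made into libraries with the NEBNext Ultra II kit and sequenced in pairs on an Illumina NovaSeq, per the labels' protocols. The submitters' processing notes list Salmon 0.14.1, FastQC 0.12.1, bcl2fastq 2.17 and GRCh38.p13 without saying what each did. For the annotation release and the strand setting, the sources used here give nothing. The authors deposited estimated counts per gene that were not scaled for depth. The authors also deposited TPM values, scaled for transcript length and depth. Counts were rounded to whole numbers before testing, since the design had assumed whole counts.

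Symbols matched 60089 of 60230 identifiers, and the other 141 were kept by identifier. Positions come from GENCODE 29 on GRCh38. A single model of the 9 libraries, with 1 mean for each state, was fitted in edgeR 4.0.16 (R 4.3.3; TMM scaling, filterByExpr with a minimum count of 10 and a minimum total of 15, 6 residual degrees of freedom). The SE was the size of the log2 fold change divided by the root of F. Alternatives were other scaling factors, other filters, DESeq2 1.42.0, limma 3.58.1 (voom, and log2(TPM + 1) or log2(TPM + 0.1) where mean TPM reached 1), a block on replicate number, separate fits for each pair of states, and leaving out libraries 1 at a time. Only the edgeR fit was tried on simulated counts, for each pair of states and with changes planted in a small part of the genes. Scaling under differences as wide as those seen here was not covered. No pair of libraries within a state agreed within sampling noise (lowest chi-square per degree of freedom 4.95).

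The members, lists and tests were chosen with earlier results of these data known. Genes named are the 9 members, other pathway genes listed by name (SLC7A11, TXN, SQSTM1, BACH1, MAFG, CUL3; 1 further gene of this rule is counted with its group and not reported here), 4 NADPH supply genes chosen after their values were seen (TALDO1, PGD, TKT, ME1), per comparison the 6 other pathway genes with the largest called change (average log2 CPM 1 or more), and the 5 genes closest in pattern to NQO1 and to NFE2L2 (average log2 CPM 3 or more, leaving out antisense, readthrough, pseudogene and clone-based names).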

Additional observations from a re-analysis of the deposited data

How the results depend on the processing

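Over 20 alternatives in 3 comparisons, the members' 540 recomputed differences kept direction and call in 505, lost the call in 15, gained it in 11 and changed sign in 9. With upper-quartile factors 0 members were called higher off drug against parental cells, and SQSTM1 there became −0.080. CUL3 became 0.060, MAFG 0.057 and SRXN1 0.039 on drug against off drug. With library size only, 5 members were called higher and 1 lower on drug against off drug, with 17 other pathway genes higher and 3585 genes lower in all, and 14 other pathway genes higher on drug against parental cells. Of 17307 genes tested on that scale, 11369 were called on drug against off drug, 68.5% of them higher. For on-drug against parental cells 11822 were called, 64.3% of them higher. The same scaling gave SQSTM1 −0.022 off drug against parental cells, CUL3 0.18, MAFG 0.18, SRXN1 0.16 and TXN 0.024 on drug against off drug, and GCLM 0.061, MAFG 0.056 and NFE2L2 0.15 on drug against parental cells. SQSTM1 off drug against parental cells was −0.021 with a stricter filter and −0.0047 with only the groups compared. On log2(TPM + 1) values 2529, 2995 and 2828 genes were called lower off drug against parental, on drug against off drug and on drug against parental cells, and on log2(TPM + 0.1) values 2531, 2975 and 2802. Other pathway genes called on drug against off drug were 16 higher and 8 lower with log2(TPM + 1), and 16 and 9 with log2(TPM + 0.1). With both, 12 were higher on drug against parental cells. Fits on TPM tested 13826 genes and 42 of the 46 other pathway genes, whereas the main fit tested 17307 genes and all 46. In that order of pseudocounts MAFG was 0.14 and 0.15 off drug against parental cells, 0.10 and 0.10 on drug against off drug, and 0.24 and 0.26 on drug against parental cells. Likewise CUL3 was 0.24 and 0.24, SRXN1 0.15 and 0.16, and TXN 0.0046 and 0.0046 on drug against off drug, and NFE2L2 was 0.19 and 0.19 on drug against parental cells. The median of all genes was −0.087, 0.15 and 0.059 with upper-quartile factors in the 3 comparisons. It was −0.031, 0.27 and 0.24 with library size only, and 0.13, 0.16 and 0.27 on log2(TPM + 1) values. These run in the order off drug against parental, on drug against off drug and on drug against parental cells. The cause of these shifts was not tested. Of called genes, 50.1% were higher on drug against off drug, 68.5% with library size only, 60.0% with upper-quartile factors and 64.0% on log2(TPM + 1) values. Against parental cells the shares were 51.6% off drug (64.6% on log2(TPM + 1) values, 43.4% with upper-quartile factors, 48.5% with library size only) and 50.4% on drug (64.3% with library size only, 69.7% on log2(TPM + 1) values).

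With 1 library left out, members called higher off drug against parental cells ranged from 0 (without parental replicate 1) to 2, and other pathway genes higher on drug against parental cells from 3 (without parental replicate 1 or on-drug replicate 1) to 6. SQSTM1 off drug against parental cells ranged from −0.037 to 0.066 and NQO1 on drug against off drug from −0.0024 to 0.091. Replicate numbers did not pair the libraries: correlations of deviations ran from −0.034 to 0.135, and 3 of 9 libraries correlated best with their own number. With a replicate block 9443, 10758 and 11417 genes were called, against 9515, 10834 and 11467 without it, and the members' counts were 2 higher and 3 lower, 3 and 3, and 3 and 4. Depth limits GPX2, which had few counts in the resistant line.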
